A study of Mus musculus with 6 samples.

Results

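The genes described here are the matrix-degrading proteases of the matrix metalloproteinase (MMP) and ADAMTS families, the ADAMTS-like proteins that lack a protease domain, and the tissue inhibitors of metalloproteinases (TIMPs). They were chosen by name: all protein-coding mouse genes called Mmp, Adamts, Adamtsl or Timp with a number, 51 genes in all, set against the 22032 genes of the deposited table. Of the 51, 45 were listed in the table, and 33 of these had a mean of at least 1 CPM (read counts scaled by the authors to a common library size) over the 6 libraries and were tested. RNA was sequenced from mDE6 cells, a mouse line whose tissue of origin the labels do not give. Cells carried a short hairpin RNA against Arl4c (shArl4c, 3 libraries) or a control hairpin (shControl, 3 libraries; the columns of the table name a luc hairpin). No other allele, agent or time point is given for either group. The labels do not say that the 3 samples of a group came from separate cultures, and p-values therefore measure the spread between these samples only, which may be technical. Only 1 group carries a hairpin against Arl4c, and the loss of Arl4c and any other action of that hairpin cannot be told apart.

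MMPs and ADAMTS proteases are zinc-dependent enzymes that cells secrete or hold at their surface and that cut collagens, proteoglycans and other matrix proteins. Both are made with a propeptide, which keeps most MMPs inactive until it is removed. TIMPs bind the active site of most MMPs and of some ADAMTS and ADAM proteases. In teeth and bone these enzymes act on collagen and on the enamel matrix, where Mmp20, enamelysin, is the known MMP of ameloblasts. ADAMTS-like proteins share the thrombospondin repeats of ADAMTS proteases without cutting, and several bind fibrillin microfibrils.

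The hairpin target was lower in every shArl4c library. Arl4c, which codes for an ARF-like GTP-binding protein, had 6.75, 7.42 and 6.89 CPM in shArl4c 2, 3 and 4, against 20.7, 21.05 and 20.1 CPM in shControl 1, 2 and 3, which was 2.94-fold lower (log2 fold change -1.43, limma adjusted p = 2.08e-10). Libraries held 12941166 to 13780358 reads in shArl4c and 12316770 to 14976113 in shControl, so that 1 read was worth 0.0672 to 0.0827 CPM. All of 8 mesenchymal markers were listed. They summed to 18499 to 19338 CPM in shArl4c, against 30488 to 31899 CPM in shControl, most of it from the collagen genes Col1a1 and Col1a2. Of the 7 tested, Col1a1, Col1a2 and Prrx1 fell, Pdgfra (234 ± 2.47 CPM in shArl4c and 138 ± 0.168 CPM in shControl) and Pdgfrb rose, and Vim and Twist1 did not pass; the 7 had a median log2 fold change of -0.06. Of 10 epithelial markers, 7 were listed and summed to 8.19 to 9.58 CPM in shArl4c, against 6.13 to 7.06 CPM in shControl. Most of it came from Trp63, the only one tested, which did not pass. Among those below 1 CPM, Cdh1 had 0 reads in shArl4c and 13 in shControl, whereas Krt19 had 31 in shArl4c and 5 in shControl. None of 6 ameloblast markers was among the listed genes. Smooth muscle and myofibroblast markers (5 of 5 listed) summed to 206 to 238 CPM in shArl4c, against 1340 to 1379 CPM in shControl, and 4 of 4 tested fell. The falls of the smooth muscle markers, of the collagen genes and of Prrx1 went with those of the protease genes described below, and their part in those results was not tested. In RNA from bulk cultures, fewer cells of a type and less RNA per cell cannot be told apart.

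More genes of the family fell than rose in shArl4c. By limma's test on log2(CPM + 1), with p-values adjusted over all 14740 tested genes and a threshold of 0.05, 8 of the 33 tested members were higher, 17 were lower and 8 were not called. Among all tested genes, 18.0% fell and 18.9% rose, and 36.9% passed in either direction. The members' median log2 fold change was -0.15, against 0.01 for all genes tested, and single members ran from -1.98 to 1.51. On the log2(CPM + 1) scale, 7 members fell and 3 rose by at least 2-fold, against 2.53% and 1.26% of all tested genes. Of the 3 that rose this far, Mmp8 and Adamts15 reached a mean of 1 CPM only through shArl4c, so their rises follow in part from the filter. The values of both groups did not overlap in 26 of the 33, against 46.8% of all tested genes. By class, 7 of 14 tested Mmp genes fell and 4 rose, 7 of 12 Adamts genes fell and 3 rose, 2 of 4 Adamtsl genes fell and 1 rose, and 1 of 3 Timp genes fell and none rose.

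**Figure D1:**
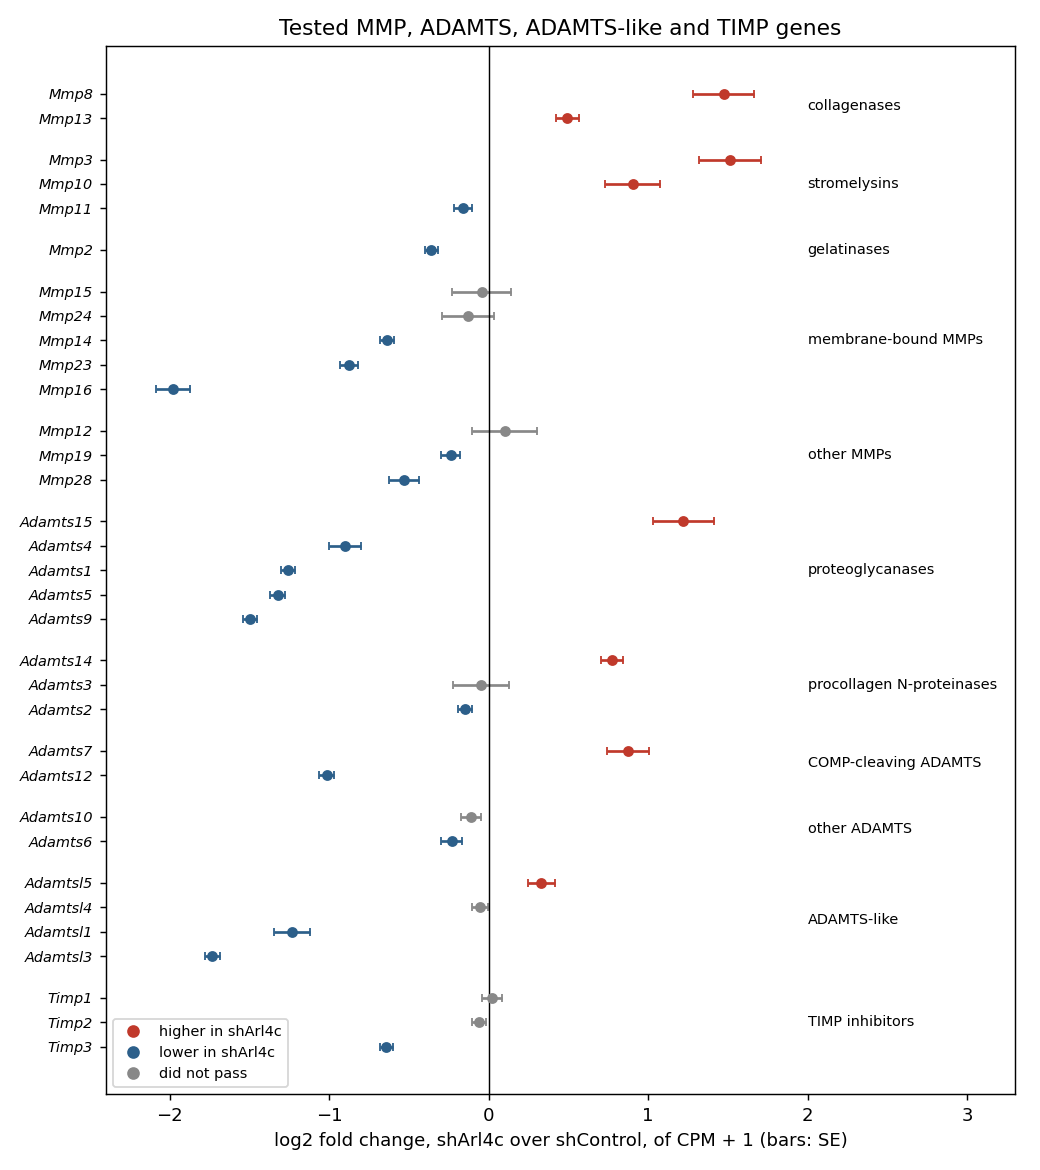
Log2 fold change of CPM + 1, shArl4c over shControl, for the 33 tested family members, grouped by role; bars are the standard error and colours the call of limma's test. The proteoglycanases and ADAMTS-like genes lie mostly left of 0, down to -1.73 for Adamtsl3, while Mmp8, Mmp3, Mmp10 and Mmp13 lie right of it.

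The ADAMTS proteases that cut large proteoglycans were mostly lower in shArl4c. Of 5 tested members of this role, Adamts1, Adamts4, Adamts5 and Adamts9 fell and Adamts15 rose. Adamts9, which cuts versican, had 66.9, 72.7 and 70.02 CPM in shArl4c 2, 3 and 4, against 197, 198 and 201 CPM in shControl 1, 2 and 3. It was 2.84-fold lower (log2 fold change -1.49 with an SE of 0.04, adjusted p = 3.31e-15 by limma), and all shArl4c libraries lay below all shControl libraries. Its exons overlap 424 bases of Gm15737 and 166 bases of A730049H05Rik on the other strand, which averaged 4.32 and 2.48 CPM over the 6 libraries. Both fell too (log2 fold change -0.79 and -0.51, limma adjusted p = 0.000257 and 0.0108). Adamts5, the main aggrecan-cutting enzyme of mouse cartilage, had 82.04, 79.1 and 87.2 CPM in the shArl4c libraries, against 203, 203 and 219 CPM in the shControl libraries. Adamts1, its direct neighbour on chromosome 16 and a versican and aggrecan protease, had 81.2, 82.4 and 88.2 CPM in the shArl4c libraries, against 202, 201 and 202 CPM in the shControl libraries. The falls of this neighbouring pair were alike in size, 2.52-fold lower (log2 fold change -1.32, limma adjusted p = 6.08e-14) and 2.405-fold lower (log2 fold change -1.26, limma adjusted p = 3.41e-14), and neither gene's groups overlapped. The 10 tested genes nearest to Adamts5 (5 on each side, Adamts1 among them) had a median log2 fold change of -0.07. Adamts4, a second aggrecan-cutting enzyme, had 7.84, 6.896 and 7.35 CPM in the shArl4c libraries, against 14.98, 15.1 and 13.7 CPM in the shControl libraries, 1.98-fold lower (log2 fold change -0.90, limma adjusted p = 5.1e-07).

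Adamts15 went the other way at a low level. This versican and aggrecan protease had 2.54, 2.17 and 2.07 CPM in the shArl4c libraries, against 0.295, 0.807 and 0.165 CPM in the shControl libraries, which came from 91 reads over the shArl4c libraries, against 18 over the shControl libraries. It was 5.35-fold higher in mean CPM, and its log2 fold change was 1.22 of CPM + 1 (limma adjusted p = 4.23e-05), 2.32 in edgeR's quasi-likelihood test on recovered reads (adjusted p = 0.000115) and 0.42 of CPM + 5. It passed the filter on low values only through shArl4c. Of the other 2 proteoglycanases, Adamts20 was below the filter, with at most 0.1499 CPM in any shArl4c library and 0.605 CPM in any shControl library, and Adamts8, the neighbour of Adamts15, was not analysed here.

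Enzymes that trim the amino end of fibrillar procollagens split. Adamts14 was 1.74-fold higher, with 35.8, 36.9 and 36.3 CPM in the shArl4c libraries, against 19.6, 20.4 and 22.6 CPM in the shControl libraries (log2 fold change 0.78 with an SE of 0.07, adjusted p = 3.06e-08 by limma). Adamts2, the most abundant of the 3 per length, was slightly lower, with 159, 154 and 164 CPM in the shArl4c libraries, against 169, 175 and 183 CPM in the shControl libraries (log2 fold change -0.15, limma adjusted p = 0.0135). Without shControl 3, Adamts2 no longer passed (adjusted p = 0.0899). Adamts3 averaged 1.35 ± 0.378 CPM in shArl4c and 1.41 ± 0.0657 CPM in shControl (SD, n = 3 each, as for all values after ±) and did not pass (log2 fold change -0.05, limma adjusted p = 0.869).

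The 2 ADAMTS proteases known to cut cartilage oligomeric matrix protein moved in opposite directions. Adamts12 had 56.99, 59.6 and 61.3 CPM in the shArl4c libraries, against 118, 120.4 and 124 CPM in the shControl libraries, 2.04-fold lower (log2 fold change -1.01 with an SE of 0.05, adjusted p = 2.53e-12 by limma). Adamts7 had 7.91, 8.77 and 7.19 CPM in the shArl4c libraries, against 3.84, 3.36 and 4.47 CPM in the shControl libraries, 2.05-fold higher (log2 fold change 0.88 with an SE of 0.13, adjusted p = 2.73e-05 by limma), with a log2 fold change of 0.54 when the pseudocount was 5. The groups did not overlap for either gene. Exons of Adamts7 and Tbc1d2b overlap by 122 bases on opposite strands in the annotation used. The sources used here do not say if counting used strand. Tbc1d2b had a log2 fold change of 0.13 and did not pass. Both other tested ADAMTS genes act on fibrillin microfibrils. Adamts6 was lower, with 43.6, 52.4 and 44.7 CPM in the shArl4c libraries, against 54.8, 54.8 and 55.7 CPM in the shControl libraries (log2 fold change -0.23, limma adjusted p = 0.00734), and the shArl4c 3 library lay nearest to the control values. Adamts10 averaged 29.9 ± 0.517 CPM in shArl4c and 32.4 ± 1.69 CPM in shControl and did not pass (log2 fold change -0.11, limma adjusted p = 0.199), although its groups did not overlap.

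Of the ADAMTS-like genes, the pair related to punctin fell most. Adamtsl3 had 36.1, 36.1 and 34.8 CPM in shArl4c 2, 3 and 4, against 119.7, 120.4 and 123 CPM in shControl 1, 2 and 3. It was 3.39-fold lower (log2 fold change -1.73 with an SE of 0.05, adjusted p = 1.13e-15 by limma), and the libraries of each group lay close together. Adamtsl1 had 4.65, 5.696 and 5.28 CPM in the shArl4c libraries, against 13.2, 12.7 and 14.8 CPM in the shControl libraries, 2.61-fold lower (log2 fold change -1.23, limma adjusted p = 3.87e-08). Neither fibrillin-binding relative passed as lower. Adamtsl5 was 1.27-fold higher, at 23.2 ± 2.06 CPM in shArl4c and 18.2 ± 1.69 CPM in shControl (log2 fold change 0.33, limma adjusted p = 0.00463), and Adamtsl4 averaged 54.8 ± 0.723 CPM in shArl4c and 56.9 ± 1.89 CPM in shControl and did not pass (log2 fold change -0.05, limma adjusted p = 0.459). Adamtsl2 was not analysed here.

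**Figure D2:**
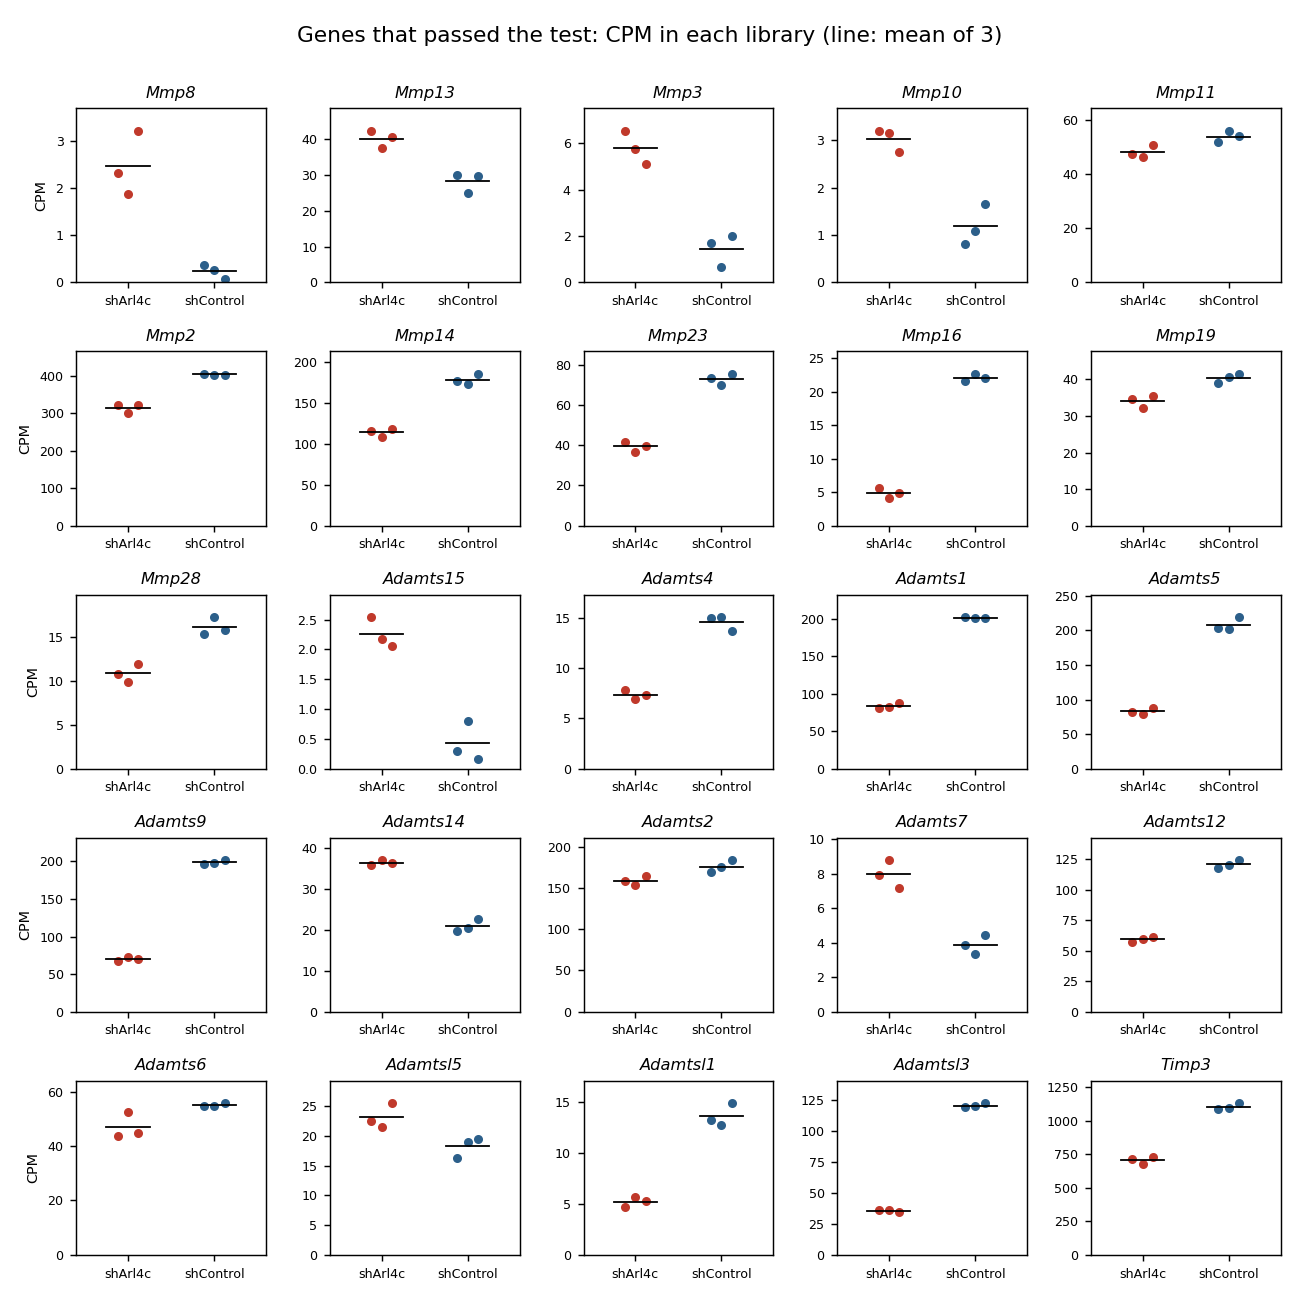
CPM in each library for the 25 family members that passed the test, shArl4c left and shControl right in each panel, with axes from 0 and a line at the mean of 3 libraries. The groups are apart in every panel, and relative to the level the gap is smallest for Mmp11, Adamts2 and Adamts6.

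MMPs held at the cell surface were lower or did not pass. Mmp16, a membrane-type MMP, fell the most of the family. It had 5.66, 4.12 and 4.898 CPM in shArl4c 2, 3 and 4, against 21.6, 22.6 and 22.01 CPM in shControl 1, 2 and 3, which was 4.51-fold lower (log2 fold change -1.98 with an SE of 0.11, adjusted p = 2.42e-11 by limma), with no overlap. Mmp14, the membrane-type MMP that activates pro-MMP2 and cuts collagen around cells, had 116, 109 and 119 CPM in the shArl4c libraries, against 176, 173 and 185 CPM in the shControl libraries, 1.56-fold lower (log2 fold change -0.64, limma adjusted p = 1.42e-09). Mmp23, which is made as a membrane protein and released by cleavage, had 41.7, 36.7 and 39.9 CPM in the shArl4c libraries, against 73.3, 70.3 and 75.5 CPM in the shControl libraries, 1.85-fold lower (log2 fold change -0.87, limma adjusted p = 3.84e-10). All 3 genes kept shArl4c below shControl in every library. Mmp15 stood at 1.42 ± 0.356 CPM in shArl4c and 1.501 ± 0.413 CPM in shControl and did not pass (limma adjusted p = 0.885). Mmp24 stood at 2.06 ± 0.433 CPM in shArl4c and 2.33 ± 0.2497 CPM in shControl and did not pass (limma adjusted p = 0.597). Mmp24 shares 637 exon bases with BC029722 on the other strand. BC029722 averaged 41.1 CPM over the 6 libraries, against 2.2 CPM for Mmp24, and did not pass (log2 fold change -0.02). Whether its reads add to the Mmp24 values was not tested. Mmp17, anchored to the membrane by lipid, was below the filter with 0.145, 0.2998 and 0.2296 CPM in the shArl4c libraries, against 0.886, 1.08 and 0.993 CPM in the shControl libraries, or 9 reads over the shArl4c libraries, against 40 over the shControl libraries; its groups did not overlap, and without the filter it passed (limma adjusted p = 0.000665).

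Among secreted MMPs coded outside chromosome 9, falls were small. Mmp2, the gelatinase that Mmp14 activates, had 323, 300.3 and 322 CPM in the shArl4c libraries, against 405, 403 and 404 CPM in the shControl libraries, 1.28-fold lower (log2 fold change -0.36 with an SE of 0.04, adjusted p = 8.72e-07 by limma). Mmp28, epilysin, had 10.8, 9.82 and 11.9 CPM in the shArl4c libraries, against 15.4, 17.2 and 15.8 CPM in the shControl libraries, 1.48-fold lower (log2 fold change -0.53, limma adjusted p = 0.00016). Mmp28 shares 466 exon bases with 1700020L24Rik on the other strand, which fell too (log2 fold change -0.54, limma adjusted p = 0.00921). Mmp19 was lower, at 34.1 ± 1.72 CPM in shArl4c and 40.4 ± 1.32 CPM in shControl (log2 fold change -0.24, limma adjusted p = 0.00458), and 789 of its exon bases overlap Tmem198b. Mmp11 had 47.6, 46.3 and 50.9 CPM in the shArl4c libraries, against 51.97, 56.1 and 54.1 CPM in the shControl libraries (log2 fold change -0.16, limma adjusted p = 0.0308). Under the alternatives run, its call was lost more often than any other of the family. It was lost without shArl4c 2, without shControl 2 and without shControl 3 (adjusted p = 0.0807, 0.147 and 0.0831). The other gelatinase, Mmp9, was below the filter in both groups, at 0.322 ± 0.263 CPM in shArl4c and 0.405 ± 0.222 CPM in shControl.

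The 4 Mmp genes that rose are neighbours. Mouse chromosome 9 carries a run of 10 Mmp genes with no other protein-coding gene between them, in the order Mmp13, Mmp12, Mmp1b, Mmp3, Mmp1a, Mmp10, Mmp8, Mmp27, Mmp20 and Mmp7 in RefSeq's annotation of GRCm38.p6. Of the 5 tested, 4 rose, none fell and Mmp12 did not pass. Mmp8, among those that rose, reached a mean of 1 CPM only through shArl4c. Of the 9 tested Mmp genes elsewhere, none rose, 7 fell and 2 did not pass. This grouping was made after the values were seen, so the contrast is a description with no test.

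Mmp13, the collagenase of bone and cartilage, had the highest level of the run per transcript length. It had 42.3, 37.4 and 40.5 CPM in shArl4c 2, 3 and 4, against 29.97, 25.01 and 29.6 CPM in shControl 1, 2 and 3, 1.42-fold higher (log2 fold change 0.49 with an SE of 0.07, adjusted p = 2.75e-05 by limma), with no overlap. Mmp3, stromelysin-1, which cuts many matrix proteins and activates other MMPs, had 6.53, 5.77 and 5.13 CPM in the shArl4c libraries, against 1.698, 0.672 and 1.99 CPM in the shControl libraries. It was 4.002-fold higher in mean CPM, with a log2 fold change of CPM + 1 of 1.51 (limma adjusted p = 8.96e-06) and of 2.02 in edgeR on recovered reads (adjusted p = 1.61e-05). Mmp10, stromelysin-2, had 3.19, 3.15 and 2.75 CPM in the shArl4c libraries, against 0.812, 1.08 and 1.65 CPM in the shControl libraries, 2.57-fold higher (log2 fold change 0.90, limma adjusted p = 0.00034; edgeR log2 fold change 1.36). Mmp3 and Mmp10 are paralogs, and whether reads were shared between them was not tested.

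Mmp8, the collagenase first known from neutrophils, had the largest ratio, on few reads. It had 2.32, 1.87 and 3.21 CPM in the shArl4c libraries, against 0.369, 0.269 and 0.0827 CPM in the shControl libraries, from 99 reads over the shArl4c libraries, against 10 over the shControl libraries. This was 10.3-fold higher, with a log2 fold change of CPM + 1 of 1.47 (limma adjusted p = 4.24e-06) and of 3.26 in edgeR on recovered reads (adjusted p = 5.25e-06). Its mean passed the filter only through shArl4c, and without shArl4c 4 it fell below the filter. With a pseudocount of 5 the log2 fold changes of these low genes shrank to 0.51 for Mmp8, 0.38 for Mmp10 and 0.75 for Mmp3, and all still passed. Of 5 neutrophil markers 3 were listed, summing to 0.290 to 0.612 CPM in shArl4c, against 0.202 to 0.517 CPM in shControl, with Elane and Mpo not among the listed genes. Mmp12, macrophage elastase, averaged 1.17 ± 0.5704 CPM in shArl4c and 0.993 ± 0.291 CPM in shControl and did not pass (log2 fold change 0.10, limma adjusted p = 0.751). Mmp12 and Mmp1b share 157 exon bases on opposite strands. Macrophage and osteoclast markers (8 of 9 listed) summed to 10.02 to 11.7 CPM in shArl4c, against 7.78 to 9.08 CPM in shControl, of which 3 were tested and Cd68 alone passed, higher at 5.77 ± 0.207 CPM in shArl4c and 2.79 ± 0.397 CPM in shControl (log2 fold change 0.84, limma adjusted p = 6.98e-05). Ptprc had 2 reads in shArl4c and 4 in shControl. Their part in these results was not tested.

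The remaining genes of the run were at the limit of detection. Mmp20 had 0.2904, 0.1499 and 0.153 CPM in the shArl4c libraries, against 0, 0 and 0 CPM in the shControl libraries, from 8 reads and 0 reads. Mmp1b had 6 reads in shArl4c and 0 in shControl, and Mmp27 had 16 in shArl4c and 3 in shControl. With 0 reads, a true level of up to 3 reads (0.202 to 0.248 CPM per library) remains possible from counting error alone, so no fold is given for Mmp20 or Mmp1b. Mmp1a and Mmp7 were not analysed here.

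Most promoter windows of this run held a short motif that no window of the other members held. Windows from 250 bases before to 50 bases after the start of RefSeq transcripts (GRCm38.p6) were at hand for 36 of the 51 members. All 10 genes of the run had a window. The members without one, Mmp2, Mmp9 and Mmp16 among them, all lay outside the run and were not searched. The letters TGANTCA, which take in the AP-1 motif of Fos and Jun proteins and whose pattern reads the same on both strands, occurred in the windows of 8 genes, and all 8 were among the 10 genes of the chromosome 9 run. They occurred in none of the 26 other members with a window. Over all genes, 8.97% of 27025 had them in at least 1 window, or 7.81% of all 32851 windows. The 2 genes of the run without them were Mmp8 and Mmp27. The letters TGACGTCA, the CRE motif, which also reads the same on both strands, occurred in no member's window and in 1.79% of all windows. The stretches below are the 110 bases before the transcript start, 5′ to 3′ on the gene's strand, for the 5 tested genes of the run, with TGANTCA in capitals.
Mmp13, chr9:7272404-7272513 (+ strand): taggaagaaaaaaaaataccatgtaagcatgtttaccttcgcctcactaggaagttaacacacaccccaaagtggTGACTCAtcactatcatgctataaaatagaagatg
Mmp12, chr9:7347264-7347373 (+ strand): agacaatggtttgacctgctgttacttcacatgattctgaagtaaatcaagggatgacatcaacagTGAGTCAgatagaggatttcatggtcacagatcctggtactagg
Mmp3, chr9:7445712-7445821 (+ strand): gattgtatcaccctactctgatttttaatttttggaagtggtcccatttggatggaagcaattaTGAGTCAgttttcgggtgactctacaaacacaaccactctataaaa
Mmp10, chr9:7502232-7502341 (+ strand): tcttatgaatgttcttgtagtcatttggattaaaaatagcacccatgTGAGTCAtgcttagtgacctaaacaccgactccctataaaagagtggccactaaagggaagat
Mmp8, chr9:7558319-7558428 (+ strand): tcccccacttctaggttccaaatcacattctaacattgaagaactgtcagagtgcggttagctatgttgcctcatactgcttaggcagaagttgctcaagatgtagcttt
Counting back from -1, the base before the start, the motif began at -35 in Mmp13, at -44 in Mmp12 (in 1 of its 2 windows), at -46 in Mmp3 and at -63 in Mmp10. It was present in Mmp12, which did not pass, and absent from the window of Mmp8, which rose. A match of letters is a description and shows no binding.

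The genes on both sides of the Mmp run rose as well. From Dync2h1 on one side to Cfap300 on the other lie 7 tested genes that are not Mmp genes (Dync2h1, Dcun1d5, Tmem123, Birc2, Birc3, Yap1 and Cfap300), and 7 of 7 rose, by 1.599-fold to 2.12-fold in mean CPM. Yap1, a co-activator of the Hippo pathway, had 3871, 3787 and 3807 CPM in the shArl4c libraries, against 1906, 1938 and 2026 CPM in the shControl libraries (log2 fold change 0.97, limma adjusted p = 2.86e-13). Birc2, an inhibitor of apoptosis, had 561, 586 and 569.7 CPM in the shArl4c libraries, against 264, 273 and 273 CPM in the shControl libraries (log2 fold change 1.08, limma adjusted p = 6.27e-14). Dync2h1, a motor protein of cilia, had 1489, 1689 and 1509 CPM in the shArl4c libraries, against 794, 784 and 799 CPM in the shControl libraries (log2 fold change 0.98, limma adjusted p = 3.01e-12). The 7 genes were picked once the values were known, and the ends of the block were set where the rises stop, so the count of 7 of 7 follows from that choice.

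The block was also expressed far above its surroundings in both groups. Per kilobase of transcript, the median of the 7 genes was 172 CPM in shArl4c and 81.2 CPM in shControl. The 7 tested genes before Dync2h1 had medians of 6.40 CPM per kilobase in shArl4c and 5.85 CPM in shControl, and the 40 tested genes after Cfap300 had 7.07 CPM in shArl4c and 7.17 CPM in shControl. Outside the block, 2 of the 7 genes before it and 8 of the 40 after it rose, with median log2 fold changes of 0.04 and 0.02, against 0.97 within it; the choice of the ends fixes this contrast, which is a description. Over the 664 tested genes of chromosome 9 outside the family, 19.7% rose. DNA was not measured, and the part of gene copy number in the rise of the Mmp run was not tested.

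**Figure D3:**
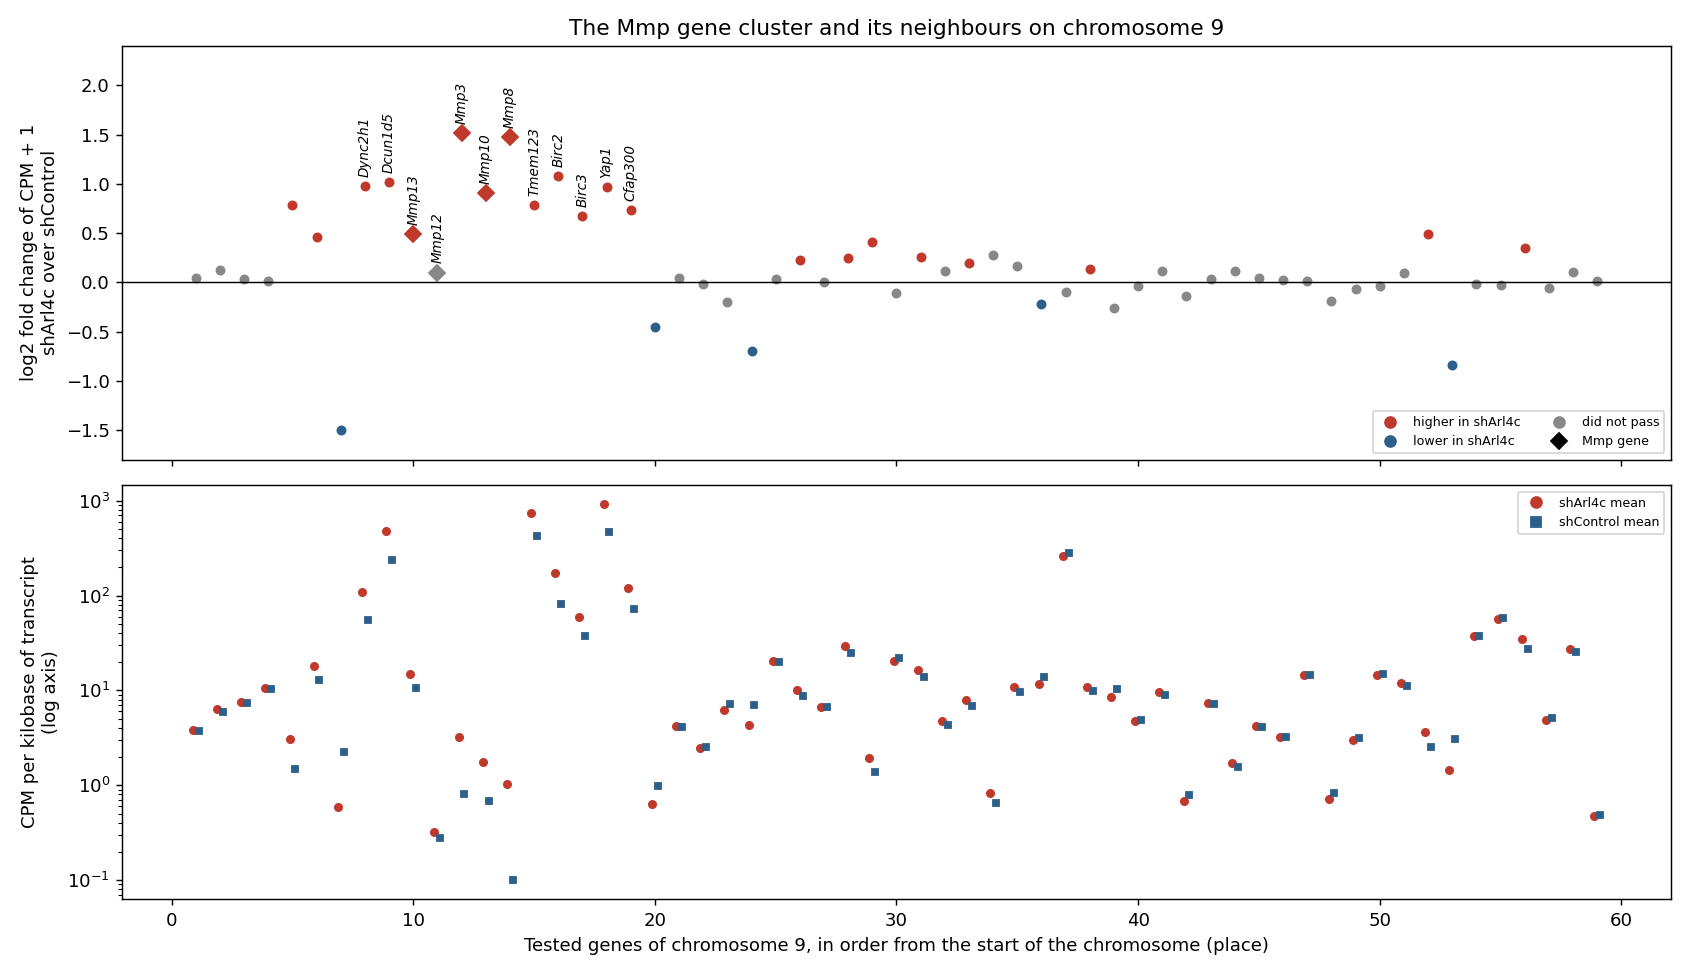
Top, log2 fold change of CPM + 1, shArl4c over shControl, for the first 59 tested genes of chromosome 9 in their order along the chromosome, with Mmp genes as diamonds. Bottom, mean CPM per kilobase of transcript in each group on a log axis. The genes named, from Dync2h1 to Cfap300, lie above 0, and the non-Mmp genes among them stand at 59.6 to 916 CPM per kilobase in shArl4c.

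Set against this block, the ratios of the Mmp genes of the run went different ways. Each was divided by the geometric mean CPM of the 7 flanking genes in the same library and is given per 1000 units of that mean. Mmp13 had 50.5, 44.8 and 49.0 in shArl4c 2, 3 and 4, against 67.4, 56.2 and 65.0 in shControl 1, 2 and 3, so that relative to its neighbours it was 1.31-fold lower. Mmp3 had 7.82, 6.92 and 6.20 in the shArl4c libraries, against 3.82, 1.51 and 4.36 in the shControl libraries, 2.16-fold higher. Mmp8 averaged 2.97 ± 0.837 in shArl4c and 0.538 ± 0.329 in shControl, 5.52-fold higher. The groups did not overlap for these 3 genes, whereas for Mmp10 (3.64 ± 0.270 in shArl4c and 2.62 ± 0.921 in shControl) and Mmp12 (1.40 ± 0.681 in shArl4c and 2.22 ± 0.674 in shControl) they did. No test was run on these ratios, which were formed after the values were seen. An exact permutation test of 3 against 3 libraries cannot go below p = 0.10. The flanking genes were chosen with their rises known, which lowers every ratio in shArl4c. In shControl, Mmp3 rests on 57 reads and Mmp8 on 10.

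The 10 tested genes nearest to each gene (5 on each side) had a median log2 fold change of -0.16 at Mmp16, 0.02 at Adamtsl3, 0.08 at Adamts9, 0.10 at Adamts12, 0.02 at Mmp14, -0.18 at Adamtsl1 and -0.17 at Mmp23, against falls of those genes from -1.98 to -0.64. At Mmp2, whose own log2 fold change was -0.36, the median of its neighbours was -0.25. Of all tested genes placed on a chromosome, 92.7% had a higher neighbour median than Mmp16, 94.1% than Adamtsl1, 93.3% than Mmp23 and 97.2% than Mmp2. For Adamtsl3, Adamts9, Adamts12 and Mmp14 this share ran from 19.8% to 50.1%. For the rises of Adamts14, Adamts15 and Adamts7, the medians were 0.11, -0.01 and 0.05.

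Of the 3 tested inhibitors, 1 fell. Timp3, which binds to the matrix and inhibits several ADAMTS and ADAM proteases as well as MMPs, had 712, 677 and 732 CPM in shArl4c 2, 3 and 4, against 1086, 1094 and 1129.6 CPM in shControl 1, 2 and 3. It was 1.56-fold lower (log2 fold change -0.64 with an SE of 0.04, adjusted p = 2.33e-10 by limma), with no overlap. Timp2, which inhibits MMPs and also takes part in the activation of pro-MMP2, had 881, 806 and 891 CPM in the shArl4c libraries, against 869, 897 and 922 CPM in the shControl libraries and did not pass (log2 fold change -0.06, limma adjusted p = 0.316). Timp1 had 144, 121 and 141 CPM in the shArl4c libraries, against 133, 138 and 128 CPM in the shControl libraries and did not pass (log2 fold change 0.02, limma adjusted p = 0.824). Library shArl4c 3 was the lowest of its group for all 3 genes, and without it Timp1 passed as higher in shArl4c (log2 fold change 0.10, adjusted p = 0.0329). Timp4 was below the filter at 0.247 ± 0.228 CPM in shArl4c and 0.278 ± 0.126 CPM in shControl.

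Per transcript length the order of the family was led by Timp2, at 232 ± 12.4 in shArl4c and 242 ± 7.203 in shControl (CPM per kilobase, mean ± SD, n = 3). Timp3 stood at 149.7 ± 5.84 in shArl4c and 234 ± 4.92 in shControl, and Timp1 at 153 ± 14.4 in shArl4c and 151 ± 5.38 in shControl. The mean ± SD ranges of Timp1 and Timp3 overlapped in shArl4c, and so did those of Timp2 and Timp3 in shControl. Mmp2 was the most abundant protease, at 102 ± 4.11 in shArl4c and 131 ± 0.271 in shControl, or 45.9% and 44.4% of the summed level of the Mmp genes in shArl4c and shControl. Among Mmp genes, Mmp14 and Mmp23 came next in both groups. Among Adamts genes the lead changed: Adamts1 was highest in shControl, at 41.3 ± 0.106 CPM per kilobase against 17.2 ± 0.760 in shArl4c, whereas Adamts2 was highest in shArl4c, at 21.8 ± 0.701 in shArl4c and 24.2 ± 0.993 in shControl.

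**Figure D4:**
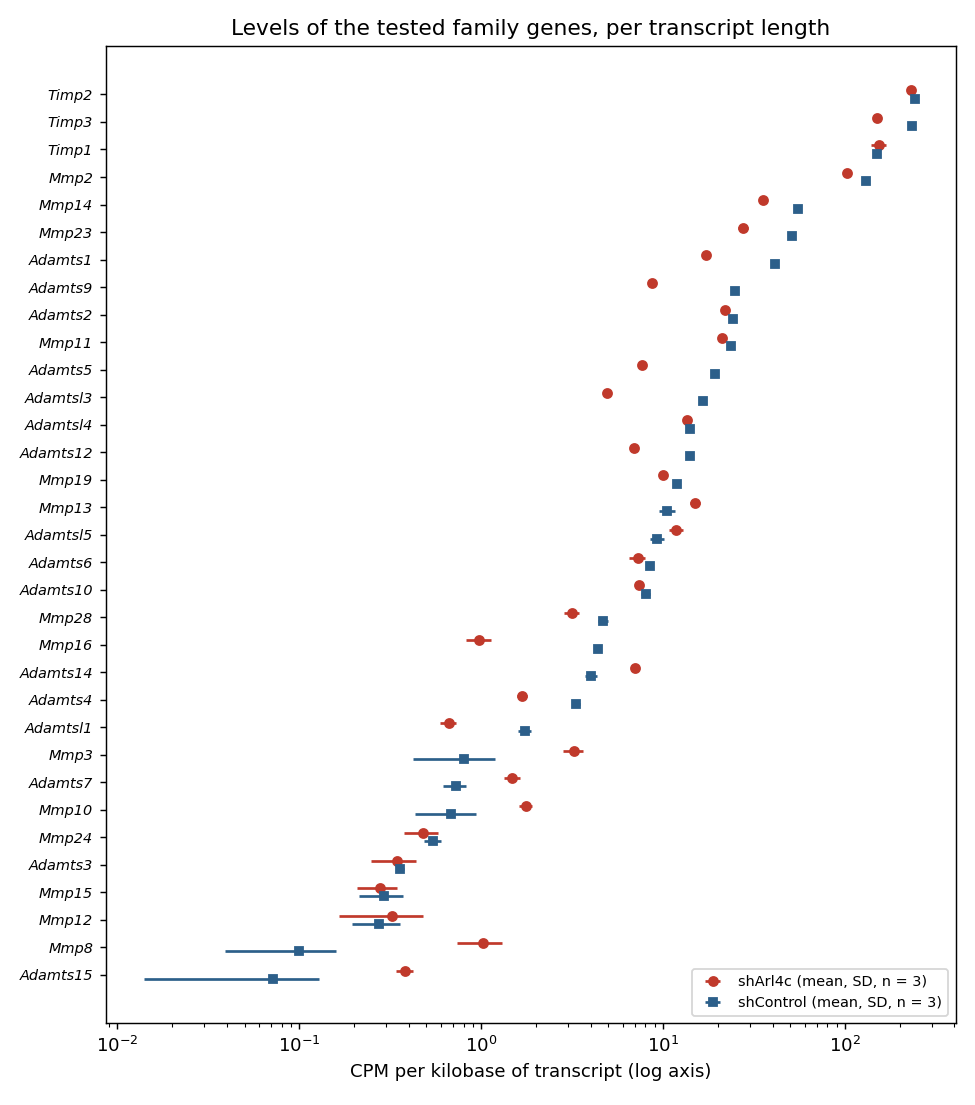
Mean level of the 33 tested members in CPM per kilobase of transcript on a log axis, ordered by shControl; bars are the SD over 3 libraries. Timp2, Timp3 and Timp1 lead, and the shArl4c points of Adamts1, Adamts9, Adamts5, Adamtsl3 and Mmp16 lie left of their shControl points.

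Summed per kilobase, each class stood lower in shArl4c, at 0.592 times the shControl level for Adamts, 0.741 for Adamtsl, 0.755 for Mmp and 0.855 for Timp genes. The 17 listed Adamts genes summed to 86.2, 88.4 and 89.97 CPM per kilobase in shArl4c 2, 3 and 4, against 147, 149 and 152 in shControl 1, 2 and 3. The 20 listed Mmp genes summed to 229, 212 and 229 in shArl4c, against 294, 292 and 300.3 in shControl. The 4 Timp genes summed to 552, 498 and 555 in shArl4c, against 615, 630 and 633 in shControl. The ratio of the Timp sum to the Mmp sum was 2.396 ± 0.0401 in shArl4c and 2.12 ± 0.0357 in shControl (SD, n = 3), and its groups did not overlap. Such sums rest on RNA, were formed over chosen genes and carry no test.

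The other 12 listed members had means below 1 CPM over the 6 libraries, with single values from 0 to 1.32 CPM. Besides those named above they were Adamts13, the protease of von Willebrand factor, and Adamts16, Adamts17, Adamts18 and Mmp21. Adamts16 stood at 0.793 ± 0.303 CPM in shArl4c and 0.734 ± 0.213 CPM in shControl and Adamts18 at 0.7998 ± 0.235 CPM in shArl4c and 1.05 ± 0.258 CPM in shControl, and the groups of both overlapped. Mmp25 and Adamts19 were not analysed here.

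Genes that act on or beside these proteases were given by lists. Among 10 tested activators and partners of MMPs, 3 rose and 1 fell, and the list's median log2 fold change was 0.05. Over all tested genes 18.9% rose, 18.0% fell and 36.9% passed either way, and the counts of this and the following lists are read against these shares. Pcsk6, a proprotein convertase, fell, at 26.3 ± 1.83 CPM in shArl4c and 61.2 ± 4.61 CPM in shControl (log2 fold change -1.19, limma adjusted p = 4.76e-11). Plau, the urokinase plasminogen activator, rose, at 71.6 ± 3.78 CPM in shArl4c and 39.8 ± 1.45 CPM in shControl (log2 fold change 0.83, limma adjusted p = 5.67e-10), as did the collagen uptake receptor Mrc2, at 387 ± 12.4 CPM in shArl4c and 335 ± 8.55 CPM in shControl (log2 fold change 0.21, limma adjusted p = 0.000455). Furin, which removes the propeptide of ADAMTS proteases and membrane-type MMPs, was chosen after its values were seen and stood at 122 ± 2.28 CPM in shArl4c and 118 ± 2.56 CPM in shControl without passing.

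A further list took in protease inhibitors other than TIMPs and some related proteins, among them Pcolce, an enhancer of procollagen C-proteinase. Of its 7 tested genes, 3 fell and none rose, and the median was -0.03. Serpinf1, a serpin not known to inhibit proteases, was lower, at 290.3 ± 20.6 CPM in shArl4c and 531 ± 11.4 CPM in shControl (log2 fold change -0.87, limma adjusted p = 3.4e-11), and the thrombin and plasminogen activator inhibitor Serpine2 was lower, at 0.226 ± 0.136 CPM in shArl4c and 2.44 ± 0.508 CPM in shControl (log2 fold change -1.48, limma adjusted p = 2.26e-06). Serpine2 had 9 reads over the shArl4c libraries, against 100 over the shControl libraries, passed the filter only through shControl, and had a log2 fold change of -3.41 in edgeR on recovered reads. Without shArl4c 3, 2 rose; under the other alternatives 2 to 3 fell and 0 to 2 rose.

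ADAM proteins, membrane-anchored relatives of the ADAMTS family, went both ways: of 9 tested, 6 fell and 3 rose, with a median of -0.11. Adam22 and Adam23, both among those that fell, lack a working protease site. Adam19 was lower, at 17.2 ± 0.954 CPM in shArl4c and 36.4 ± 1.899 CPM in shControl (log2 fold change -1.04, limma adjusted p = 7.12e-10), as was Adam12, at 26.999 ± 1.25 CPM in shArl4c and 41.6 ± 3.31 CPM in shControl (log2 fold change -0.60, limma adjusted p = 8.02e-07), and Adam22, at 2.34 ± 0.159 CPM in shArl4c and 4.86 ± 0.839 CPM in shControl (log2 fold change -0.80, limma adjusted p = 0.000248), 2.08-fold lower in mean CPM. Without shControl 3, 3 fell and 1 rose, and without shArl4c 4, 3 fell; over all alternatives 3 to 6 fell and 1 to 3 rose. Of 10 tested other proteases of the matrix or lysosome, 6 rose and 3 fell, and the median was 0.23. Mme, neprilysin, rose, at 596 ± 13.1 CPM in shArl4c and 314 ± 13.9 CPM in shControl (log2 fold change 0.92, limma adjusted p = 1.91e-12), as did cathepsin L, Ctsl, at 284 ± 17.6 CPM in shArl4c and 233 ± 9.02 CPM in shControl (log2 fold change 0.28, limma adjusted p = 9.57e-05). Tll1, a procollagen C-proteinase, was lower, at 0.1502 ± 0.0762 CPM in shArl4c and 2.41 ± 0.283 CPM in shControl (log2 fold change -1.57, limma adjusted p = 6.46e-07). Tll1 had 6 reads over the shArl4c libraries, against 97 over the shControl libraries, passed the filter only through shControl, and had a log2 fold change of -3.94 in edgeR on recovered reads.

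Of the proteoglycans that ADAMTS proteases cut, their link proteins and cartilage oligomeric matrix protein (Comp), 4 of 9 were listed and 2 tested. Vcan, versican, rose, at 457 ± 32.9 CPM in shArl4c and 407 ± 13.6 CPM in shControl (log2 fold change 0.17, limma adjusted p = 0.0113), and Hapln4 was lower at 0.701 ± 0.294 CPM in shArl4c and 1.62 ± 0.688 CPM in shControl (log2 fold change -0.61, limma adjusted p = 0.0272). Hapln4 had 28 reads over the shArl4c libraries, against 64 over the shControl libraries, passed the filter only through shControl, and had a log2 fold change of -1.19 in edgeR on recovered reads. Vcan lost its call without shControl 1 or shControl 2, without trend and robust moderation and under quantile normalization. Hapln4 lost it without shArl4c 2, shControl 2 or shControl 3, in DESeq2, without trend and robust moderation and under quantile normalization. Thrombospondin repeats of ADAMTS proteins carry an O-linked sugar that Pofut2 starts and B3glct extends. A list of genes that add sugars to such repeats also took in Pofut1, which acts on EGF-like repeats instead. Of its 5 tested genes, 2 fell and 1 rose, and the median was -0.08. Pofut1 did not pass (log2 fold change -0.07, limma adjusted p = 0.291). Pofut2 was lower, at 88.02 ± 2.68 CPM in shArl4c and 106 ± 0.575 CPM in shControl (log2 fold change -0.27, limma adjusted p = 8.24e-05), B3glct was lower, at 23.4 ± 0.0539 CPM in shArl4c and 28.3 ± 0.0901 CPM in shControl (log2 fold change -0.27, limma adjusted p = 0.00288), and Dpy19l1 was higher, at 111 ± 0.762 CPM in shArl4c and 98.1 ± 2.597 CPM in shControl (log2 fold change 0.17, limma adjusted p = 0.00395).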

How the data were processed

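RNA was sequenced from 6 samples of mDE6 cells, 3 shArl4c and 3 shControl. The authors deposited 1 table of CPM values per gene and library. The build was GRCm39 and the tools Bowtie2, edgeR, RSEM 1.3.0 and Trimmomatic 0.38, per the submitters' processing notes; their order, settings and strand setting are not given in the sources used here. All values came out as whole multiples of the value of 1 read (100% within 0.001 of a read), so reads were recovered (12316770 to 14976113 per library). Columns were tied to groups by hairpin name and to no single sample; their numbers, 1 to 3 and 2 to 4, name the libraries. Symbols matched 21880 of 22032 identifiers. Transcript lengths were those of the longest coding transcript in a GENCODE annotation of an older build, used for lengths and exon overlaps only. Promoters were RefSeq's of GRCm38.p6.

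Tests used log2(CPM + 1) of the 14740 genes whose mean reached 1 CPM. shArl4c was compared with shControl by limma 3.58.1 (R 4.3.3), with intensity trend and robust moderation and no covariate; p-values were adjusted by Benjamini and Hochberg over all tested genes. Fold changes on this scale understate those of low genes, so ratios of mean CPM or edgeR's estimates are given for those. Values are mean ± SD over n = 3 libraries. Alternatives were other pseudocounts, filters and scalings, limma without trend or with array weights, each library left out, and edgeR 4.0.16 and DESeq2 1.42.0 on recovered reads. The limma, edgeR and DESeq2 fits were tested on simulated counts. These gave all genes the same spread beyond counting error and changed a far smaller share of genes than passed here. No result rests on that check. All members above the filter were named, and the 3 genes of each further list with the smallest p among those past the threshold, except 1 gene that is not reported here. The members and lists were chosen with earlier results of these data known. Protein sequences were not used here.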

Additional observations from a re-analysis of the deposited data

How the results depend on the processing

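The count of family members that fell ran from 15 to 17 with a library left out and from 14 to 18 under the other settings, against 17. The count that rose ran from 7 to 9 with a library left out; it was 4 when the filter asked for a mean of 5 CPM or more, since that filter leaves 25 members and removes Mmp3, Mmp8, Mmp10 and Adamts15. Over 584 pairs of a tested member and an alternative, 574 kept their side of the threshold, 9 lost the call and 1 gained it. No called member changed direction; of the uncalled, Adamts3, Mmp12, Mmp15 and Timp1 changed sign under some alternatives, without passing there. Mmp11 lost its call in 6 alternatives (adjusted p up to 0.147), Adamts2 in 2 and Adamts6 in 1, without trend and robust moderation (adjusted p = 0.0656); the cause was not tested. Over all genes, edgeR on recovered reads called 2605 higher and 2771 lower, DESeq2 2000 and 2108, and limma 2790 and 2655. Timp1 gained a call without shArl4c 3. Without a filter on low values 18 members fell, Mmp17 being added. The 7 genes flanking the Mmp run passed as higher under every alternative run. Other scalings shifted the median log2 fold change of all genes by at most 0.03. No paired analysis was possible because the columns carry numbers 1 to 3 in one group and 2 to 4 in the other and could not be tied to the numbered samples. Depth limits the genes under 1 CPM, where 1 library holds about 15 reads or fewer.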
